A study of Neurospora crassa with 2 samples.

Results

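The carotenoid synthesis genes of *Neurospora crassa* described here are *al-3* (NCU01427), *al-2* (NCU00585), *al-1* (NCU00552) and *ylo-1* (NCU04013), 4 genes taken by locus out of the 9730 genes of the deposited expression table. They were compared between 1 RNA-seq library of Δ*gul-1*, a strain that lacks the mRNA-binding protein gene *gul-1* (NCU01197) and came from a collection of gene deletion mutants, and 1 library of the wild type (WT). Mycelia of both strains had grown from conidia for 3 days at 25 °C under constant light in Avicel medium, that is Vogel's salts with 2% microcrystalline cellulose, 0.75% yeast extract and 0.2% Tween 80. The authors' comparison asked which transcripts changed with the pellet growth of the mutant. With 1 library per strain no test was possible and no p-value is given. All intervals are exact 95% intervals computed from the reads, and they hold counting error alone.

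The orange pigment of *N. crassa* is made by a short branch of isoprenoid metabolism. AL-3, the geranylgeranyl diphosphate synthase, builds the prenyl chain from farnesyl diphosphate. AL-2 joins such chains into the colourless phytoene and later closes the ring of torulene, so that 1 protein serves both an early and a late step. AL-1, the phytoene desaturase, introduces the double bonds that give colour. The oxygenase CAO-2 then cleaves torulene, and YLO-1, an aldehyde dehydrogenase, oxidises the cleaved product to the acidic end product neurosporaxanthin. Transcription of the *al* genes in mycelia is known to be induced by blue light through the White Collar complex, and conidia are also rich in carotenoids. Both strains were grown in the light, so dark levels are not part of these data.

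The 2 libraries were of nearly equal depth, with 20341292 reads assigned to genes in Δ*gul-1* and 20461987 in WT. The deleted gene had 304 reads in Δ*gul-1* and 21537 reads in WT, a ratio of 0.0142 (interval 0.0126 to 0.0159). Levels are the authors' RPKM, reads scaled by exon length and by all assigned reads, and ratios are Δ*gul-1* over WT. The floor of the study's methods was used, above 20 RPKM in at least 1 library, but not its NOISeq calls. Past this floor, genes with a ratio of 2 or more were counted as higher and those with a ratio of 0.5 or less as lower. Of the 4409 genes above it, 3.88% were counted as higher (171 genes) and 2.63% as lower (116 genes). With TMM factors, a scaling that lowers every log2 ratio by 0.15, the split was 137 higher and 151 lower. Past the floor, the median gene had a log2 ratio of 0.11 in deposited RPKM and of -0.04 with TMM factors.

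All 4 carotenoid synthesis genes passed the floor, and all were well covered, with 1528 to 6104 reads per gene and library. One member, *al-2*, was counted as lower in Δ*gul-1*, none was counted as higher, and 3 lay within 2-fold, where 2.63% of all genes past the floor were lower and 3.88% were higher. The step before *al-2* (*al-3*) and the last step (*ylo-1*) had ratios of about 1.4, and *al-1* a ratio just under 1. The members therefore did not move together. In bulk RNA, fewer cells that express a gene and less of its RNA per cell cannot be told apart.

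**Figure D1:**
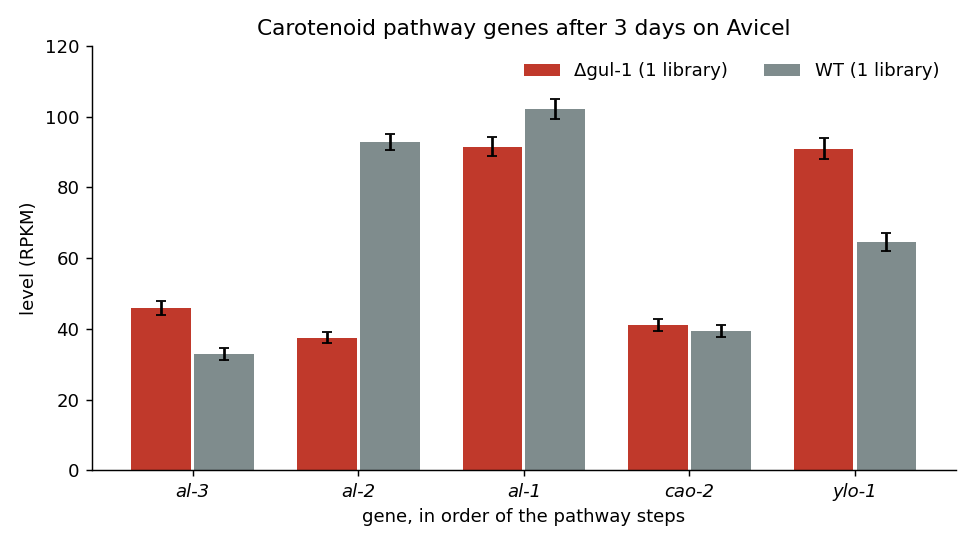
Level of each carotenoid pathway gene in RPKM (bars, axis from 0) in the Δ*gul-1* library (red) and the WT library (grey), in order of the pathway steps, with exact 95% counting intervals. The *al-2* bar stands at 37.5 RPKM in Δ*gul-1* and 92.9 RPKM in WT, while the *al-3* and *ylo-1* bars are taller in Δ*gul-1*.

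The first gene of the branch, *al-3* (chromosome V, 4030155 to 4032913 in RefSeq's annotation of the NC12 assembly), had 2125 reads and 45.9 RPKM in Δ*gul-1*, against 1528 reads and 32.8 RPKM in WT. Its ratio was 1.40 (interval 1.31 to 1.49). This was above the median gene but within 2-fold, and 14.3% of the genes past the floor had a ratio at least as high. In WT *al-3* had the lowest level of the pathway genes.

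The phytoene synthase and carotene cyclase gene *al-2* (chromosome I, 7920916 to 7924255) had 2451 reads and 37.5 RPKM in Δ*gul-1*, against 6104 reads and 92.9 RPKM in WT. It was 2.48-fold lower in Δ*gul-1* (interval 2.36 to 2.60), with a log2 ratio of -1.31. The whole counting interval lay beyond 2-fold. Of the 4409 genes past the floor, 75 (1.70%) had a ratio as low as this or lower. The number of genes with a higher RPKM than *al-2* was 2520 in Δ*gul-1* and 881 in WT, which placed it above 74.1% of all genes in Δ*gul-1* and above 90.9% in WT.

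The phytoene desaturase gene *al-1* (chromosome I, 8029857 to 8032395) had 4379 reads and 91.5 RPKM in Δ*gul-1*, against 4920 reads and 102.1 RPKM in WT. The ratio was 0.895 (interval 0.859 to 0.933), and 20.4% of the genes past the floor had a ratio as low or lower. It had the highest RPKM of the pathway genes in WT, and one of the 2 highest in Δ*gul-1*. Although AL-1 works on the product of AL-2, the difference in *al-1* was small beside that in *al-2*.

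The aldehyde dehydrogenase gene *ylo-1* (chromosome VI, 2441355 to 2444495) had 3769 reads and 91.0 RPKM in Δ*gul-1*, against 2690 reads and 64.5 RPKM in WT. Its ratio of 1.41 (interval 1.34 to 1.48) was the highest among the members on the deposited RPKM and lay next to that of *al-3*, with overlapping intervals. Of the genes past the floor, 13.9% had a ratio at least as high. The torulene-cleaving oxygenase gene *cao-2* (NCU11424, chromosome VII, 2483 to 4931), which is not a member but encodes the step before YLO-1, had 1994 reads and 41.0 RPKM in Δ*gul-1* and 1923 reads and 39.4 RPKM in WT. Its ratio of 1.04 had an interval that included 1 (0.979 to 1.11), and with TMM factors the ratio was 0.940, on the other side of 1.

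**Figure D2:**
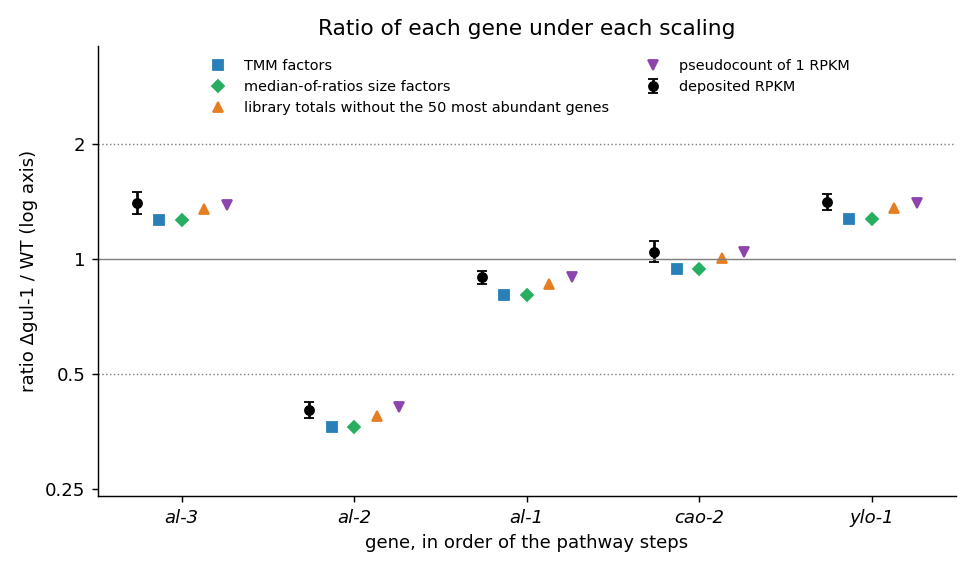
Ratio of Δ*gul-1* to WT (log axis) for each pathway gene on the deposited RPKM (black circles, with exact 95% counting intervals) and under 4 other settings (coloured symbols). Dotted lines mark 2-fold. The *al-2* symbols, from 0.364 to 0.410, all lie below 0.5, those of *al-3*, *al-1* and *ylo-1* stay within 2-fold on the same side of 1, and those of *cao-2* lie on both sides of 1.

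The order of levels along the pathway differed between the libraries. In Δ*gul-1* the order was *al-1*, *ylo-1*, *al-3*, *cao-2* and *al-2*, and *al-1* and *ylo-1* did not differ beyond counting error (*al-1* over *ylo-1* 1.01, interval 0.962 to 1.05). The next neighbours in this order differed beyond counting error, *ylo-1* over *al-3* by a factor of 1.98 (interval 1.88 to 2.09), *al-3* over *cao-2* by 1.12 (interval 1.05 to 1.19) and *cao-2* over *al-2* by 1.09 (interval 1.03 to 1.16). In WT the order was *al-1*, *al-2*, *ylo-1*, *cao-2* and *al-3*, and each interval between neighbours excluded equality, the closest being *al-1* over *al-2* at 1.10 (interval 1.06 to 1.14). By RPKM, *al-2* thus ranked last of the pathway genes in Δ*gul-1*, close to *cao-2*, and second in WT. Bias that differs between genes is not held in these intervals.

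Summed over the 4 members and *cao-2*, the pathway had 306.9 RPKM in Δ*gul-1* and 331.7 RPKM in WT, a ratio of 0.925. *al-2* made up 12.2% of this sum in Δ*gul-1* and 28.0% in WT. Without *al-2*, the other genes summed to 269.3 RPKM in Δ*gul-1* and 238.8 RPKM in WT, a ratio of 1.13. The share of *ylo-1* was 29.6% in Δ*gul-1* and 19.5% in WT, and that of *al-1* was 29.8% in Δ*gul-1* and 30.8% in WT.

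Ratios between 2 members within a library do not depend on how the libraries are scaled, and all 6 pairs were compared. The RPKM of *al-2* relative to *al-1* was 0.410 in Δ*gul-1* and 0.909 in WT, which is 2.22-fold lower in Δ*gul-1* (interval 2.08 to 2.36). Relative to *ylo-1* it was 0.412 in Δ*gul-1* and 1.44 in WT, 3.49-fold lower (interval 3.26 to 3.74). The 3 pairs with *al-2* were the only ones past 2-fold. For *al-3* relative to *al-2*, the RPKM ratio was 1.22 in Δ*gul-1* and 0.353 in WT, a factor of 3.46 (interval 3.19 to 3.76), so that the gene of the chain-building step exceeded the phytoene synthase gene in Δ*gul-1* alone.

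The remaining pairs were closer. *al-3* relative to *ylo-1* was 0.504 in Δ*gul-1* and 0.508 in WT, a factor of 0.993 whose interval (0.913 to 1.08) included 1. A difference in the proportion of the first and the last step was thus not detectable at this depth, within the bounds of that interval. *al-3* relative to *al-1* differed by a factor of 1.56 (interval 1.45 to 1.69), and *al-1* relative to *ylo-1* by 0.635 (interval 0.595 to 0.678). Outside the members, *al-2* relative to *cao-2* was 0.914 in Δ*gul-1* and 2.36 in WT, 2.58-fold lower in Δ*gul-1* (interval 2.39 to 2.79).

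**Figure D3:**
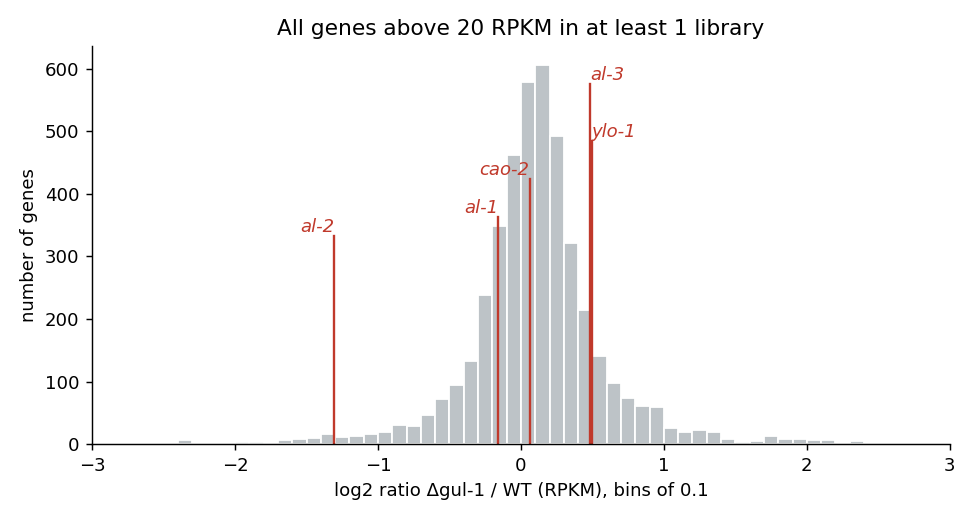
Number of genes in each bin of the log2 ratio of Δ*gul-1* to WT (bins of 0.1, from -3 to 3), for the genes above 20 RPKM in at least 1 library; 22 genes lie outside the axis. Red lines mark the pathway genes. *al-2* at -1.31 lies in the left tail, and *al-1*, *cao-2*, *al-3* and *ylo-1*, from -0.16 to 0.50, lie in the bulk of the distribution.

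Precursors for the pathway come from mevalonate, which is made from acetyl-CoA and converted by way of isopentenyl diphosphate to farnesyl diphosphate. Of 10 genes found by annotation words for this supply, 7 passed the floor and none was counted as higher or lower, with a median log2 ratio of -0.03 beside 0.11 for all genes past the floor. The most abundant was *fpp* (NCU01175), the farnesyl diphosphate synthase gene that makes the substrate of AL-3, with 83.4 RPKM in Δ*gul-1* and 68.9 RPKM in WT (ratio 1.21, interval 1.15 to 1.28). The value farthest from 1 on the deposited RPKM was that of NCU09732, annotated as acetyl-CoA acetyltransferase, the activity of the first step. It had 40.2 RPKM in Δ*gul-1* and 23.0 RPKM in WT (ratio 1.75, interval 1.62 to 1.88). Another gene with the same annotation, NCU02571, had 24.1 RPKM in Δ*gul-1* and 24.5 RPKM in WT (ratio 0.981, interval 0.908 to 1.06). The annotation does not say which of them serves this route.

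At the next step, hydroxymethylglutaryl-CoA synthase (NCU03922) had 28.2 RPKM in Δ*gul-1* and 44.5 RPKM in WT. Its ratio was 0.633 (interval 0.593 to 0.676), on the other side of 1 from that of NCU09732. With TMM factors NCU03922 was the farther from 1, at 0.571, against 1.57 for NCU09732. The reductase gene of this route, NCU00712, whose annotation is spelled differently and which was added after its values were seen, had 34.2 RPKM in Δ*gul-1* and 38.2 RPKM in WT. Its ratio of 0.894 was nearly that of *al-1*. The isomerase gene NCU07719, which makes the starter of the prenyl chain, had 38.6 RPKM in Δ*gul-1* and 41.4 RPKM in WT, with an interval that reached 1 (0.869 to 1.00). The words also took in the lyase NCU05419 and the tRNA isopentenyltransferase NCU10185, which do not supply the pathway, and both lay within 2-fold.

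Farnesyl and geranylgeranyl diphosphate also feed sterols, dolichol, ubiquinone, haem A and prenylated proteins. Among 10 genes found by annotation words for these uses, 5 passed the floor and none was counted as higher or lower (median log2 ratio 0.10). NCU03632, the α subunit that protein farnesyl and geranylgeranyl transferases share, was both the most abundant and, among those past the floor, the farthest from 1, with 69.9 RPKM in Δ*gul-1* and 46.4 RPKM in WT (ratio 1.51, interval 1.42 to 1.60). Farther from 1 but below the floor was NCU07509, a geranylgeranyl transferase β subunit gene with 144 reads in Δ*gul-1* and 85 in WT. Squalene synthase (NCU06054), which draws farnesyl diphosphate into sterols, had 33.0 RPKM in Δ*gul-1* and 35.6 RPKM in WT. Neither the supply list nor the list of other uses held a gene past 2-fold above the floor. Over all genes past the floor 3.88% were higher and 2.63% lower, so lists this short may well hold none. Of the 2 further polyprenyl synthase genes outside these words, both named after their values were seen, NCU02305 had a ratio of 0.881 and NCU09312 one of 0.647.

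Light reception was taken up because it drives the *al* genes in mycelia. The list held 12 genes for photoreceptors, clock and light-response factors and a carotenogenesis regulator. Of these, 10 passed the floor and none was counted as higher or lower (median log2 ratio 0.21). Shares over all genes past the floor were 3.88% higher and 2.63% lower, so a list this short may well hold none. Ratios were above 1 for 10 of the 12 on the deposited RPKM and for 7 of the 12 with TMM factors. Of all 9730 genes, 6035 and 4490 were above 1 on these scales. The 9730 include genes with no WT reads and hence no ratio, and on the deposited RPKM 3030 genes were below 1. The White Collar genes, whose products form the blue-light receptor complex, had 30.8 RPKM in Δ*gul-1* and 25.9 RPKM in WT for *wc-1* (NCU02356), and 74.4 RPKM in Δ*gul-1* and 63.6 RPKM in WT for *wc-2* (NCU00902). The most abundant gene of the list was *vvd* (NCU03967), the photoreceptor that tempers White Collar activity in continued light, with 235.6 RPKM in Δ*gul-1* and 204.4 RPKM in WT (ratio 1.15, interval 1.13 to 1.18). With TMM factors its ratio was 1.04. Ratios below 1, on the side of *al-2* but within 2-fold, were those of the cryptochrome gene *cry* (NCU00582, 0.837, interval 0.803 to 0.871) and of *csp-1* (NCU02713, 0.828, interval 0.788 to 0.871), a transcription factor gene of the light response.

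The values of *dcc-1* (NCU00939), annotated as development and carotenogenesis control-1, were 36.3 RPKM in Δ*gul-1* and 34.5 RPKM in WT (ratio 1.05, interval 1.01 to 1.09). With TMM factors, which scale each ratio down by the same factor, this one was below 1. The ratio farthest from 1 in the list was that of the phytochrome gene *phy-2* (NCU05790), a red-light photoreceptor gene, at 3.43 (interval 2.57 to 4.64). There were 208 reads and 2.92 RPKM in Δ*gul-1* against 61 reads and 0.852 RPKM in WT, below the floor in both libraries.

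**Figure D4:**
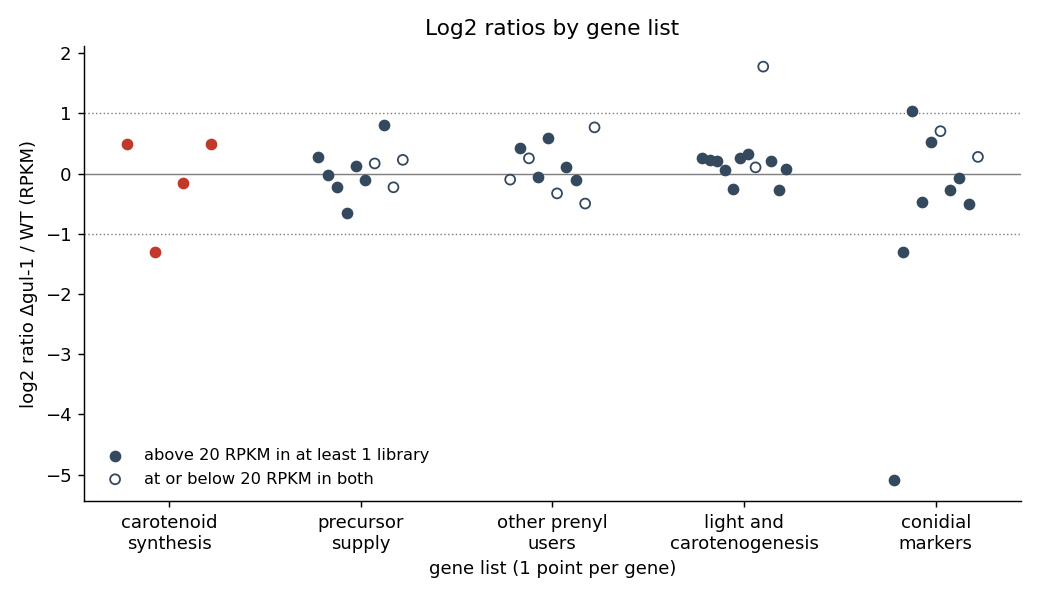
Log2 ratio of Δ*gul-1* to WT for each gene of the 4 carotenoid synthesis genes (red) and of the lists for precursor supply, other users of prenyl diphosphates, light reception and carotenogenesis, and conidial markers (dark). Open circles are at or below 20 RPKM in both libraries and dotted lines mark 2-fold. The precursor, prenyl and light lists lie between -1 and 1 apart from *phy-2* at 1.78, and the conidial markers run from -5.10 (*eas*) to 1.04 (*con-6*).

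Because conidia and aerial hyphae are rich in carotenoids, markers of these cells were read beside *al-2*. Of 10 markers, 8 passed the floor, 2 were counted as lower (*eas* and *fl*), 1 as higher (*con-6*) and 5 lay within 2-fold. Over all genes past the floor, 2.63% were lower and 3.88% higher. Conidial regulator *fl* (NCU08726) had 22.3 RPKM in Δ*gul-1* and 55.2 RPKM in WT. Its ratio of 0.403 (interval 0.379 to 0.429) lay beside that of *al-2* at 0.404 (interval 0.385 to 0.423). The rodlet hydrophobin gene *eas* (NCU08457) had a ratio of 0.0292, that is 34.3-fold lower in Δ*gul-1*. This is a larger fold than the paper reports for *eas* from RNA-seq, and the source of the difference was not tested.

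The 8 markers past the floor had a median log2 ratio of -0.37 in deposited RPKM and of -0.52 with TMM factors, beside 0.11 and -0.04 for all genes past the floor, and 6 of the 8 had a ratio below 1. Besides *eas* and *fl* these were *con-8*, *csp-1* (0.828), *csp-2* (NCU06095, 0.952) and *acon-2* (NCU00478, 0.706), all within 2-fold. Of these, *csp-1* is also in the list for light reception above and is counted in both lists. The interval of *csp-2* (0.899 to 1.01) included 1. *acon-2* passed the floor only in WT, at 20.3 RPKM against 14.3 RPKM in Δ*gul-1*. Below the floor, *con-13* (NCU07324) and *acon-3* (NCU07617) had ratios of 1.63 and 1.21. Over all 10 markers, on the deposited RPKM, 4 ratios were above 1 and 6 below, with a median log2 ratio of -0.17. Of all 9730 genes, 6035 were above 1 and 3030 below, with a median of 0.15. *con-10* (NCU07325), a transcript that accumulates in conidiating cultures, had 229.4 RPKM in Δ*gul-1* and 159.1 RPKM in WT, and *con-8* (NCU09235) had 511.1 RPKM in Δ*gul-1* and 705.6 RPKM in WT. *con-6* (NCU08769) had 21.3 RPKM in Δ*gul-1* and 10.3 RPKM in WT, a ratio of 2.06 that was 1.86 with TMM factors, within 2-fold. Summed over the 10 markers the level was 1073 RPKM in Δ*gul-1* and 6861 RPKM in WT, most of the WT sum being *eas* at 5793 RPKM. Levels of single markers ran from 5.14 to 511.1 RPKM in Δ*gul-1* and from 3.15 to 5793 RPKM in WT, so that none was at 0. The part of conidial cells in the *al-2* difference was not tested.

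*al-1* and *al-2* lie 105.6 kb apart on chromosome I, and the genes around each pathway gene were read to see whether neighbours moved with it. Between *al-2* and *al-1* lie 35 genes, of which 25 passed the floor, 1 was counted as higher and none as lower, with a median log2 ratio of 0.04. Over all genes past the floor, 3.88% were higher and 2.63% lower. On one side of *al-2*, *ncw-6* (NCU00586), a non-anchored cell wall protein gene, had 14.9 RPKM in Δ*gul-1* and 11.6 RPKM in WT (ratio 1.28). On the other side, NCU00584, a hypothetical protein gene only 11 bases away, had 562 reads and 15.7 RPKM in Δ*gul-1* against 847 reads and 23.6 RPKM in WT, a ratio of 0.667 (interval 0.599 to 0.743). The sources used here do not say whether the counting used strand, and reads of genes this close may not be fully separated.

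Among the 10 nearest genes around *al-2*, 5 on each side, 7 passed the floor and none was counted as lower. One was counted as higher, NCU00591, a methylcrotonoyl-CoA carboxylase subunit gene of leucine breakdown, with a ratio of 2.33. No neighbour within 5 genes of *al-3*, *al-1* or *ylo-1* was counted as higher or lower. Past the floor these were 6 genes around *al-3*, 8 around *al-1* and 6 around *ylo-1*. At shares of 3.88% higher and 2.63% lower over all genes past the floor, so few genes may well hold none. *al-3* overlaps the hypothetical protein gene NCU01426 by 32 bases in the RefSeq annotation, and NCU01426 had 975 reads in Δ*gul-1* and 803 reads in WT (ratio 1.22), fewer than *al-3* in both libraries. The other gene next to *al-3*, NCU06636 (annotated as cell division control protein 14), had a ratio of 1.29 below the floor. *al-1* lies between NCU00553, a rho GTPase activator gene with a ratio of 1.05, and *myo2* (NCU00551) with a ratio of 1.18. *ylo-1* lies between the hypothetical protein genes NCU04012, with 80 reads in Δ*gul-1* and 74 in WT, and NCU04014, with a ratio of 1.24.

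**Figure D5:**
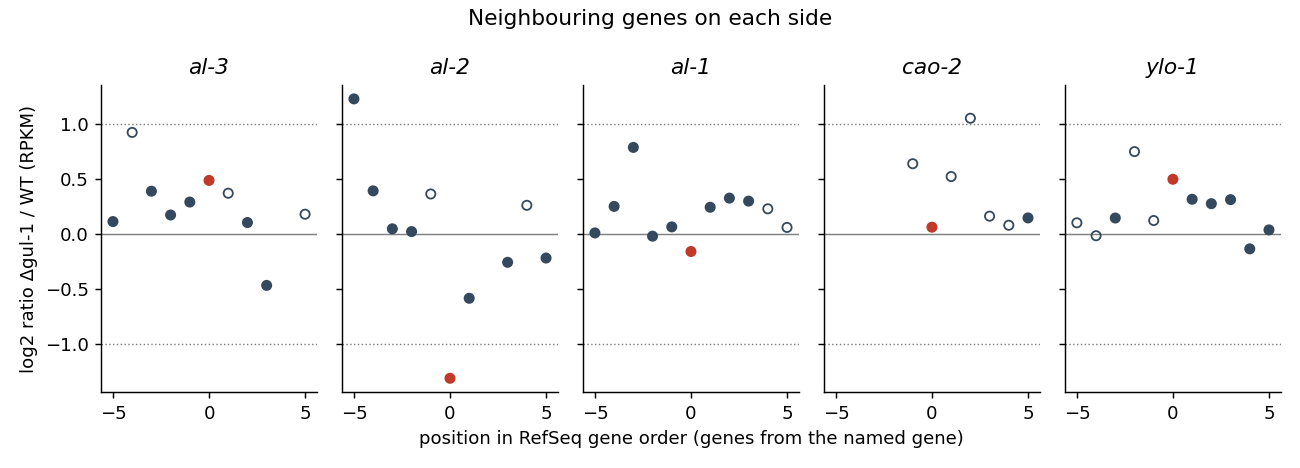
Log2 ratio of Δ*gul-1* to WT for each pathway gene (red, position 0) and for up to 5 genes on each side in RefSeq order (dark; open circles are at or below 20 RPKM in both libraries, and dotted lines mark 2-fold). *al-2* at -1.31 lies below all plotted neighbours, the closest of which in value is NCU00584 at -0.58, next to it at position 1.

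Genes with the most similar pair of levels were sought among the annotated genes past the floor, by the distance between the 2 log2 RPKM values. With 2 libraries this measures only a similar level and ratio. The nearest genes were NCU09642, a sulfate transporter gene, for *al-3* (distance 0.023), the phosphoketolase gene NCU06123 for *al-1* (0.025) and *nuo21.3a* (NCU08930), a subunit gene of respiratory complex I, for *ylo-1* (0.016). The next were NCU02452 and *csn-7* for *al-3*, *pex4* and NCU02424 for *al-1*, and NCU05360 and NCU00025 for *ylo-1*, all at distances of 0.024 to 0.055.

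The gene nearest to *al-2*, NCU07899, annotated as a CAIB/BAIF family protein, was farther off, at a distance of 0.174, with 38.3 RPKM in Δ*gul-1* and 82.5 RPKM in WT. The next were *ilv-2* (NCU03608), a gene of isoleucine and valine synthesis, with 43.8 RPKM in Δ*gul-1* and 81.6 RPKM in WT, and NCU07736, annotated as PEP5, with 34.5 RPKM in Δ*gul-1* and 75.0 RPKM in WT. NCU07899 and NCU07736 were also counted as lower, while the ratio of *ilv-2* was 0.537. Low ratios among these genes follow from the search, which matched the level of *al-2* in both libraries.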

How the data were processed

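Total RNA was sequenced as 1 library per strain on an Illumina platform. The authors mapped reads with TopHat 2.0.8b (TopHat2 in the submitters' processing notes) to the predicted *N. crassa* transcripts, and HTSeq 0.5.4p2 gave the reads that fell on a single gene. The deposited counts are raw, and the deposited RPKM values are the authors' own; recomputed from reads, exon length and column totals they differed by at most 1.8e-12. A NOISeq probability of the authors in the table was not used. Ratios were computed from RPKM with no pseudocount, and intervals are conditional Clopper-Pearson intervals on reads (conditional odds ratios for pairs of genes). Members and lists were chosen with earlier results of these data known. Listed loci whose RefSeq symbol was not that of the list were left out (1 locus). Symbols and positions are from RefSeq's NC12, which held 9729 of the loci. Named genes are the members, *cao-2*, *gul-1*, listed genes past 2-fold or else the most abundant and the farthest from 1, direct neighbours and the 3 nearest patterns per member; any further listed gene was picked with its values in view. Alternatives were TMM factors, median-of-ratios size factors, totals without the 50 most abundant genes, a pseudocount of 1 RPKM, floors of 5 and 50 RPKM or none, and folds of 1.5 and 3. The calling code was run on simulated libraries with counting noise alone. They held no variation between cultures, so this run does not bear on whether a call would recur in another culture. Python 3.11.15, scipy 1.17.1, pandas 2.3.3, edgeR 4.0.16 and R 4.3.3 were used.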

Additional observations from a re-analysis of the deposited data

How the results depend on the processing

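Of the values recomputed, 44 stayed within the counting interval (or, for a count of genes, within 1.5 times) and 22 did not. The call of *al-2* held under each scaling and pseudocount tried. Its direction could not have changed under these settings. The scalings multiply every ratio of reads by 1 common factor, from 0.907 to 0.969, and a pseudocount cannot carry a ratio across 1. With TMM factors the ratios were 1.26 for *al-3*, 0.364 for *al-2*, 0.807 for *al-1*, 0.940 for *cao-2* and 1.27 for *ylo-1*; median-of-ratios size factors gave 1.26, 0.364, 0.807, 0.940 and 1.27 in the same order of genes. Both lower every ratio by 1 common factor. At a fold threshold of 3, *al-2* was not counted. Over all genes, the floor of 5 RPKM gave 317 higher genes, the floor of 50 gave 87 higher and 75 lower, no floor gave 735 higher and 249 lower, a fold of 1.5 gave 476 higher and 254 lower, and a fold of 3 gave 72 higher and 43 lower. Among the precursor, prenyl, light and *cao-2* genes, no floor gave 1 higher (*phy-2*), and a fold of 1.5 gave 2 higher (NCU03632 and NCU09732) and 1 lower (NCU03922). No paired analysis was possible because each strain had 1 library. With 1 library per strain, the variation between cultures is unknown.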
